A study of Mus musculus with 8 samples.

Results

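The genes followed here are 7 members of the apolipoprotein and clusterin group, Apoe, Apoc1, Apoc2, Apod, Apol9a, Apol9b and Clu, chosen by symbol from the 54752 genes of the count tables. RNA-seq was performed on the right cerebral cortex of 8 adult male wild-type C57BL/6 mice (the J substrain by the study's methods), with 1 mouse per library. Sham mice (n = 4) underwent the operation without coils. BCAS mice (n = 4) received microcoils around both common carotid arteries, a bilateral carotid artery stenosis that lowers blood flow to the forebrain, with the narrower coil on the right. The tissue was taken 3 weeks after surgery, so the comparison describes 1 time point on the more constricted side. The samples are pieces of whole cortex in which fewer cells of a type and less RNA per cell cannot be told apart.

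Apolipoproteins coat lipid particles and steer their uptake, and the brain runs a lipid transport of its own behind the blood-brain barrier. Apolipoprotein E, made mainly by astrocytes and by activated microglia, is the chief carrier and binds receptors of the LDL receptor family. Apolipoproteins C-I and C-II ride on the same particles, where C-II activates lipoprotein lipase and C-I slows lipoprotein uptake. Apolipoprotein D is a small lipocalin that carries hydrophobic ligands such as arachidonic acid. Clusterin, also called apolipoprotein J, is a secreted chaperone made largely by astrocytes. The Apol9 genes belong to the mouse apolipoprotein L family, encode proteins of the cell interior and are known as interferon-inducible.

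Each library held 16759364 to 21794435 counted read pairs, so a count of 3 corresponded to 0.138 to 0.179 counts per 1000000 counted pairs. CPM below are counts per 1000000 on library sizes scaled by TMM, whereas shares of the library are unscaled. A gene was tested where at least 4 libraries reached 0.558 counts per 1000000, and a gene under that level in some sham mice entered the test through its BCAS libraries, so that its call was largely fixed by this filter. Neuronal markers summed to 9956 to 11862 CPM after sham surgery and 3801 to 8486 CPM after BCAS, and all 12 were detected and tested, among them the cortical glutamatergic marker Slc17a7. Sham mouse 3 stood apart in choroid plexus genes, whose 10 markers summed to 807 CPM against 20.5 to 80.4 CPM in the other libraries. It also had the lowest summed oligodendrocyte markers, 3938 CPM against 6086 to 6340 CPM in the other sham mice. Apod, Clu and the marker lists are given without it where a result changed.

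After BCAS, the cortex held more RNA of Apoe, Apod and Clu in every mouse, and these were the 3 members expressed highly enough to be tested among 17136 genes. Apoe rose 6.11-fold, Apod 5.04-fold and Clu 1.88-fold as ratios of group means. Apoe and Apod were called higher by edgeR's quasi-likelihood test at an adjusted p under 0.05 and a log2 fold change above 1, a rule that called 11.0% of all tested genes higher and 1.28% lower. Clu met the adjusted p alone, as did 19.2% of tested genes in the upward and 12.8% in the downward direction. The values of all 4 BCAS mice lay above all 4 sham mice for Apoe, Apod and Clu, a separation seen in 18.5% of tested genes. The same held for Apol9a and Apol9b, which were not tested and lie outside that share. Their separation rested on 3 and 7 counts in BCAS mouse 2, against at most 1 and 5 counts in a sham mouse. Apoc1 and Apoc2 were above the sham range in 3 of the 4 BCAS mice.

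**Figure D1:**
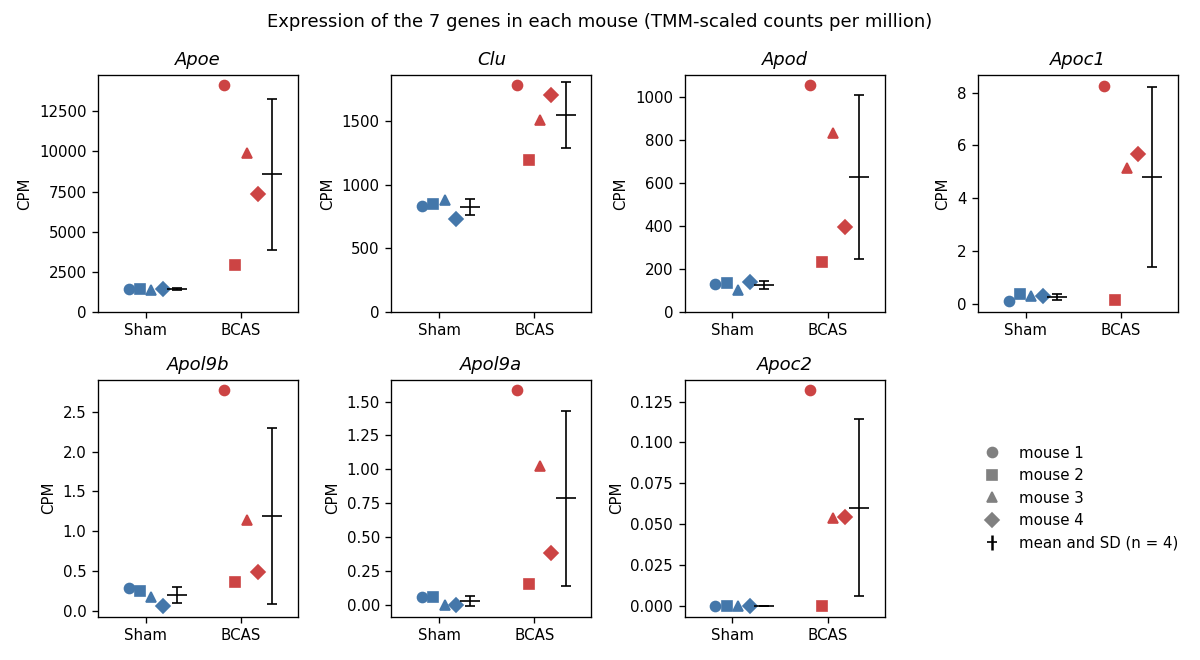
Expression of the 7 genes in TMM-scaled CPM in each of 4 sham (blue) and 4 BCAS (red) mice, each panel with its own linear axis; black bars are the mean and SD. Apoe lay between 1335 and 1449 CPM after sham surgery and between 2915 and 14143 CPM after BCAS, and BCAS mouse 2 was the lowest BCAS mouse in every panel.

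Apoe (ENSMUSG00000002985.16) lies at chr7:19696109-19699188 on the minus strand of mm10. Sham mice 1 to 4 gave 24727, 23217, 23341 and 23662 counts, and BCAS mice 1 to 4 gave 321728, 56584, 182785 and 135283 counts. The sham mice were nearly level, whereas the BCAS mice spread widely and none came down to the sham range. In CPM, Apoe had a mean of 1404 ± 49.4 (SD, n = 4) after sham surgery and 8575 ± 4697 (SD, n = 4) after BCAS. The log2 fold change was 2.61 (SE 0.42, 95% confidence interval 1.67 to 3.55), with an adjusted p of 0.00410 by edgeR. Relative to the sham mean, the 4 BCAS mice stood at 10.1, 2.08, 7.03 and 5.25 times its level, so the size of the rise differed strongly among mice.

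As a share of the library, Apoe took 0.133%, 0.139%, 0.133% and 0.139% of all counted pairs in the sham mice. In the BCAS mice it took 1.48%, 0.294%, 1.00% and 0.773%. Apoe was thus the most counted gene of BCAS mice 1, 3 and 4 and ranked 4 in BCAS mouse 2, compared with ranks 36 to 48 after sham surgery. The exact binomial 95% intervals of these shares, which cover counting error only, were narrow beside the differences between mice, running for example from 0.292% to 0.296% in BCAS mouse 2. The mean share rose from 0.136% ± 0.00341 to 0.886% ± 0.492 (SD, n = 4 each). The exact two-sided permutation test gave p = 0.0286, the smallest that 4 against 4 mice allow, and 0.0400 after Benjamini-Hochberg adjustment over the 7 genes. With any single sham mouse left out, this exact p was 0.0571, although all 4 BCAS mice still lay above the remaining sham mice.

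**Figure D2:**
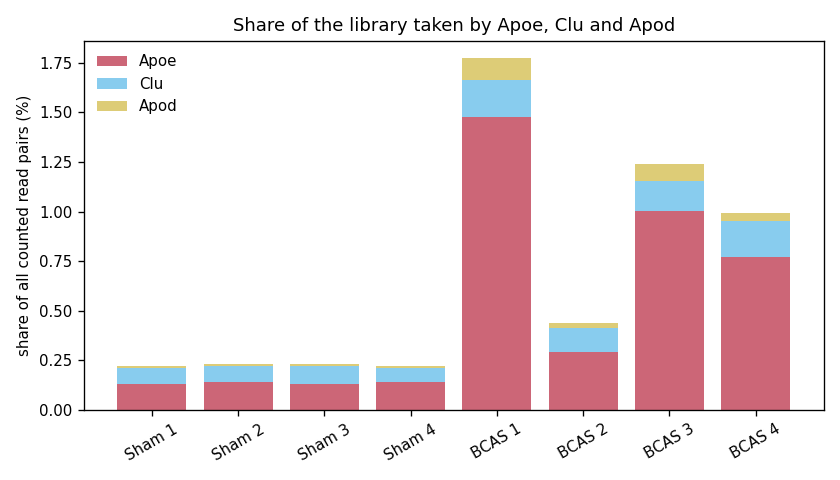
Share of all counted read pairs (percent, linear axis from 0) taken by Apoe, Clu and Apod, stacked, in each library. Apoe took 0.133% to 0.139% after sham surgery and 0.294% to 1.48% after BCAS and made up most of every bar.

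Together the 7 genes took 0.228% ± 0.00429 of the counts after sham surgery and 1.11% ± 0.555 after BCAS (SD, n = 4 each). Per mouse the summed share was 0.224%, 0.232%, 0.230% and 0.224% after sham surgery and 1.77%, 0.438%, 1.24% and 0.994% after BCAS. Apoe alone supplied 59.7% of these counts in sham and 79.7% after BCAS. Without Apoe, the other 6 genes still took 0.0846% to 0.0970% of the counts after sham surgery and 0.144% to 0.298% after BCAS. The sum is a description of the libraries and was not tested.

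For Apoe, 3 annotated starts have a promoter window in RefSeq (GRCm38.p6, the build mm10 is based on), each running from 250 bases before to 50 bases after the start. RefSeq windows were matched for 5 of the 7 genes, Apoe, Apoc2, Apod, Apol9a and Apol9b, and not for Apoc1 and Clu. They were searched on both strands for GAAANNGAA, the paired repeat found in interferon-stimulated response elements, for TTCNNNGAA, the core bound by STAT factors, and for CACGTG, an E-box. The single match at Apoe was a GAAANNGAA match 122 bases before the start in the most upstream window, shown because Apoe carries the main result, with the match in capitals.
Apoe promoter, chr7:19699139-19699438, minus strand: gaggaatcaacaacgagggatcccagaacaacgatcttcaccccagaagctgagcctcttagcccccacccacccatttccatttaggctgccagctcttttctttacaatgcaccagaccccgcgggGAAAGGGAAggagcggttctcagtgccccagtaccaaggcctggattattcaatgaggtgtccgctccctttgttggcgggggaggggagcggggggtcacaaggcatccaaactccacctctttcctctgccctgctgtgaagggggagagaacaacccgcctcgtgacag
Of 32851 mouse promoter windows, 8.56% held GAAANNGAA, 8.30% held TTCNNNGAA and 7.15% held CACGTG. A match describes the letters of the window and is no evidence that a factor binds there. The windows of Apod and Apoc2 held none of the 3 motifs.

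Apoc1 and Apoc2 are neighbours of Apoe on the minus strand of chromosome 7. Apoc1 (ENSMUSG00000040564.14) lies at chr7:19689481-19692660. It had 2, 6, 5 and 5 counts after sham surgery and 188, 3, 95 and 104 counts after BCAS. Apoc1 was therefore close to undetected in sham cortex and clearly present in 3 BCAS mice, while BCAS mouse 2 stayed within the sham range although its Apoe was at 2.08 times the sham mean. In the mean share of counts the exact permutation test gave p = 0.114 (0.133 adjusted over the 7 genes). The gene was too low for the main filter, and the fit without a filter gave a log2 fold change of 4.13 (SE 0.82) with an adjusted p of 0.00523 by edgeR. That unfiltered fit called 6.75% of its 32537 genes higher. Over the groups, the 390 BCAS counts against 18 sham counts made a ratio of 18.6 after correction for library size (95% counting interval 11.6 to 31.6). Leaving out BCAS mouse 2, the only BCAS mouse within the sham range, separated the groups and gave an exact p of 0.0286. That outcome followed from which mouse was left out and is no support for a rise.

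Apoc2 (ENSMUSG00000002992.17), at chr7:19671579-19677941, was hardly counted in any library. It had 0 counts in all 4 sham mice and 3, 0, 1 and 1 counts after BCAS, and no fold is given. The exact permutation p of its share was 0.143. Without BCAS mouse 2, the only BCAS mouse with 0 counts, it was 0.0286, on 5 counts in all. That outcome followed from which mouse was left out and is no support for a rise. The annotation lets 79.5% of the exon bases of Apoc2 belong also to Gm44805 on the same strand, and featureCounts left out pairs that overlapped several genes, so its level is a lower bound.

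A further gene of this cluster, Apoc4, was named after its values were seen. It had 0 counts in all 4 sham mice and 58, 3, 27 and 11 counts after BCAS. Against a floor of 3 counts over the sham group it was at least 28.3-fold higher, and with the counting error of the 99 BCAS counts included the lower 95% counting bound of the ratio was 22.6. Apoe, Apoc1 and Apoc4 of the cluster were thus higher in BCAS mice 1, 3 and 4 than in any sham mouse, and all of them had their lowest BCAS value in mouse 2.

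Apod (ENSMUSG00000022548.14) lies at chr16:31296192-31314808 on the minus strand. Its counts were 2297, 2115, 1734 and 2265 after sham surgery and 23959, 4480, 15411 and 7225 after BCAS. As for Apoe, the order among BCAS mice was mouse 1, 3, 4 and 2, and the lowest BCAS mouse was above the highest sham mouse. Apod had 125 ± 17.1 CPM after sham surgery and 628 ± 381 CPM after BCAS (SD, n = 4 each). The log2 fold change was 2.33 (SE 0.43, 95% confidence interval 1.37 to 3.29), with an adjusted p of 0.00648 by edgeR. Its share of all counts went from 0.0120% to 0.0647%, with an exact permutation p of 0.0286 that was 0.0857 with any single sham mouse left out. Sham mouse 3, the library with choroid plexus genes and few oligodendrocyte transcripts, had the lowest Apod value, 99.2 CPM, and without it the log2 fold change was 2.23.

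Clu (ENSMUSG00000022037.15) lies at chr14:65968483-65981547 on the plus strand. It had 14577, 13621, 15320 and 12115 counts after sham surgery and 40658, 23249, 27883 and 31243 counts after BCAS. The groups did not overlap, and the rise was smaller and more even among mice than those of Apoe and Apod. Clu had 821 ± 63.3 CPM after sham surgery and 1548 ± 262 CPM after BCAS (SD, n = 4 each), so its coefficient of variation among BCAS mice was 16.9%, compared with 54.8% for Apoe and 60.7% for Apod. The log2 fold change was 0.91 (SE 0.15, 95% confidence interval 0.57 to 1.26), with an adjusted p of 0.00456 by edgeR, just short of the log2 threshold of 1. With scaling by library size alone, and without BCAS mouse 2, where it was 1.03, Clu passed that threshold as well. Its share rose from 0.0795% to 0.160% with an exact permutation p of 0.0286, which was 0.0571 with any single sham mouse left out. Clu was highest among sham mice in the library with choroid plexus genes, and without that library the log2 fold change was 0.94.

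Apol9a and Apol9b are near copies on chromosome 15, Apol9a (ENSMUSG00000057346.12) at chr15:77403789-77411135 on the minus strand and Apol9b (ENSMUSG00000068246.6) at chr15:77729039-77736382 on the plus strand. Their promoter windows share a run of 278 identical bases, shown once because both genes hold it and both were higher in every BCAS mouse. The capitals mark an overlapping pair of GAAANNGAA matches on the reverse strand, which lie in all 4 of their RefSeq windows. No TTCNNNGAA or CACGTG match was found there.
Apol9a, chr15:77411053-77411330, minus strand, and Apol9b, chr15:77728844-77729121, plus strand: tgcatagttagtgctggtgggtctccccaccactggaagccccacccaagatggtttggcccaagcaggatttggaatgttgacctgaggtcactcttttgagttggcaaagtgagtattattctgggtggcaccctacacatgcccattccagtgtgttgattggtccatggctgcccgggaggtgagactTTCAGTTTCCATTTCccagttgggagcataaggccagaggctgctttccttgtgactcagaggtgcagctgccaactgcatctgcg

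Apol9a had 1, 1, 0 and 0 counts after sham surgery and 36, 3, 19 and 7 counts after BCAS. Apol9b had 5, 4, 3 and 1 counts after sham surgery and 63, 7, 21 and 9 counts after BCAS. In CPM, both genes were higher in every BCAS mouse than in any sham mouse, with BCAS mouse 1 highest and mouse 2 lowest, although all counts were small. Summed over groups, the ratio after correction for library size was 27.8 (95% counting interval 7.40 to 235) for Apol9a and 6.59 (3.68 to 12.8) for Apol9b. The exact permutation p was 0.0286 for each share (0.0400 adjusted over the 7 genes), and with any single sham mouse left out it was 0.0857 for Apol9a and 0.143 to 0.171 for Apol9b.

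Without a filter, the log2 fold change of Apol9a was 4.45 (SE 0.98) with an adjusted p of 0.00917 by edgeR. That of Apol9b was 2.59 (SE 0.71) with an adjusted p of 0.0274, and this call was lost in 6 of the 8 fits that left out a mouse, namely each sham mouse, BCAS mouse 1 or BCAS mouse 3. Its value without BCAS mouse 1 was 1.75, with an adjusted p of 0.108 by edgeR. Of the windows of 150 bases in the transcripts, 409 (7.10% of those of Apol9a and 22.5% of those of Apol9b) were identical between both genes, and pairs from them cannot be assigned. With both counted as 1 gene, the log2 fold change was 3.11 with an adjusted p of 0.0105 by edgeR. Of the 20 interferon-stimulated genes on the list, which leave the Apol9 genes out, 16 were over the filter level in every sham mouse, and all 16 were called higher, beside 11.0% of all tested genes. The antiviral effectors Mx1 and Oas1a had the largest log2 differences of the list (5.70 and 5.27), but with sham means of 0.254 and 0.490 CPM they belonged to the 4 genes that entered the test through BCAS libraries. The sum of all 20 genes of the list was 92.8 to 116 CPM after sham surgery and 1070, 276, 607 and 499 CPM in BCAS mice 1 to 4.

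Levels of different genes can be compared only per length, here as CPM per kilobase of exon. In sham cortex the order was Apoe at 657 ± 23.1, Clu at 239 ± 18.4, Apod at 48.3 ± 6.65, Apoc1 at 0.361 ± 0.148, Apol9b at 0.105 ± 0.0545, Apol9a at 0.00501 ± 0.00579 and Apoc2 at 0 (SD, n = 4). In BCAS cortex it was Apoe at 4011 ± 2197, Clu at 450 ± 76.2, Apod at 244 ± 148, Apoc1 at 6.46 ± 4.55, Apol9b at 0.653 ± 0.608, Apol9a at 0.132 ± 0.109 and Apoc2 at 0.0739 ± 0.0667 CPM per kilobase. Without Apoc2, whose level is a lower bound that was divided by its full length, the order of the other 6 genes was the same in both groups. After BCAS the ranges of Clu (348 to 520) and Apod (89.5 to 409) overlapped, as did each neighbouring pair from Apoc1 down to Apol9a. After sham surgery Apoe, Clu and Apod lay clear of their neighbours, whereas Apoc1 overlapped Apol9b (0.153 to 0.503 and 0.0331 to 0.156).

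Ratios of members within a library show whether genes moved unequally without any scaling between libraries. The count of Apoe over that of Clu was 1.70, 1.70, 1.52 and 1.95 after sham surgery and 7.91, 2.43, 6.56 and 4.33 after BCAS. Apoe gained on Clu in every BCAS mouse, by 1.50 on the log2 scale or 2.82-fold, with an exact permutation p of 0.0286 (0.0714 after adjustment over 5 ratios, and unadjusted 0.0571 with any single sham mouse left out). The count of Apoe over that of Apod was 10.8, 11.0, 13.5 and 10.4 after sham surgery and 13.4, 12.6, 11.9 and 18.7 after BCAS. These groups overlapped, and the log2 difference of 0.30 had an exact permutation p of 0.114. For Apoe over Apoc1 the log2 difference was -0.81 (exact p = 0.400). All ratios were computed with 0.5 added to each count. Without BCAS mouse 2, the exact p was 0.0286 for Apoe over Apoc1 (-1.64). That mouse was the only BCAS mouse not below all sham mice in this ratio, so the outcome followed from leaving it out and is no support. The other two ratios, Apoc1 over Apoc2 and Apol9a over Apol9b, are not read, because Apoc2 had 0 counts in 5 of the 8 libraries and Apol9a had 0 or 1 count in each sham mouse, so that the added 0.5 largely set them.

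Across the 8 libraries, log2 CPM of Apoe and Apod had a Pearson r of 0.98, Apoe and Clu 0.96, and Apod and Clu 0.91, given as a description because the libraries form 2 groups. A mean of at least 100 counts was reached by 12435 genes, and those most like Apoe were S100a11, Spp1 and Arap1 (r = 0.999, 0.998 and 0.998), and 243 genes had an r over 0.99. S100a11 is a calcium-binding protein and Spp1 encodes osteopontin. Most like Apod were Birc3, C1s1 and Gimap3 (0.996, 0.995 and 0.994), of which C1s1 encodes a complement protease. Most like Clu were Pld2, Angptl2 and Bmp7 (0.996, 0.993 and 0.993), of which Bmp7 is a growth factor of the BMP family.

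Several receptors that take up apolipoprotein particles were among the genes that rose. Of 21 genes for lipoprotein receptors and their regulators, all tested, 9 were higher and 2 lower at the adjusted p of edgeR, beside 19.2% and 12.8% of all tested genes, and 8 were called higher. Of the 18 that were over the filter level in every sham mouse, 7 were higher. The 2 lower genes became 4 without BCAS mouse 2, 1 without BCAS mouse 3 or sham mouse 3, and 0 without BCAS mouse 4 or sham mouse 1, 2 or 4. Trem2, a microglial receptor that binds lipids and apolipoproteins, rose from 12.3 ± 1.97 to 248 ± 122 CPM (log2 fold change 4.34, adjusted p = 0.00146). Apobr, a macrophage receptor for apolipoprotein B particles, rose from 1.00 ± 0.333 to 9.71 ± 5.57 CPM (3.27, adjusted p = 0.00275), and was under the filter level in 1 sham mouse. The sorting receptors Sorl1 and Sort1 fell, by 0.50 and 0.44 on the log2 scale, with adjusted p-values of 0.0204 and 0.0472. The median of the list was 0.43 on the log2 scale, compared with -0.01 over all tested genes.

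Genes of lipid efflux, particle maturation and lipolysis rose or did not pass the test. Of 16 genes, 13 were tested, 6 were higher at the adjusted p, beside 19.2% of all tested genes, and none was lower (2 were without BCAS mouse 2), with a median log2 fold change of 0.77. The largest increases were those of Abca1, the transporter that loads lipid onto apolipoprotein E, from 59.8 ± 4.70 to 486 ± 307 CPM (log2 fold change 3.02, adjusted p = 0.00375 by edgeR), and of Lpl, lipoprotein lipase, from 21.1 ± 5.74 to 164 ± 95.7 CPM (2.96, adjusted p = 0.00347). Of 12 tested lipid-sensing transcription factors of 14, 5 were higher and 2 lower, beside 19.2% and 12.8% of all tested genes. The 5 became 2 without BCAS mouse 3 or sham mouse 2, 3 or 4 and 3 without sham mouse 1, and the 2 became 1 without BCAS mouse 4 or sham mouse 1, 2 or 4. Nr1h3, the liver X receptor alpha, rose by 1.38 and Srebf1 by 1.14 on the log2 scale, with adjusted p-values of 0.00644 and 0.00637. Srebf2, the regulator of cholesterol synthesis genes, and Rora fell by 0.61 and 0.51, with adjusted p-values of 0.0129 and 0.0369.

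**Figure D3:**
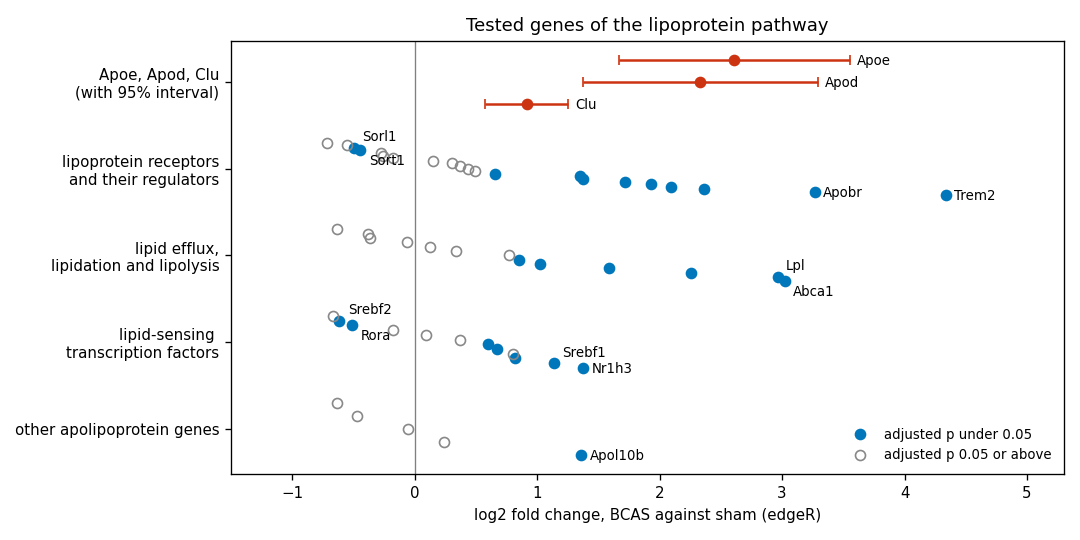
Log2 fold change of BCAS against sham mice (edgeR, horizontal axis) for Apoe, Apod and Clu with 95% confidence intervals and for the tested genes of 4 lists, 1 point per gene, filled where the adjusted p was under 0.05. Trem2 (4.34), Apobr (3.27), Abca1 (3.02) and Lpl (2.96) lay farthest right, while Sorl1, Sort1, Srebf2 and Rora lay left of 0.

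The other apolipoprotein genes were mostly too low to test. Of 25 such genes, 5 passed the filter, and Apol10b alone was higher, from 0.664 ± 0.184 to 1.71 ± 0.672 CPM (log2 fold change 1.36, adjusted p = 0.0237 by edgeR). A count of 1 in 5 is near the 19.2% of all tested genes that were higher, and Apol10b was under the filter level in 2 sham mice. The count of 1 was 0 without BCAS mouse 1 or 4 and 2 without BCAS mouse 2 or sham mouse 2, 3 or 4. Apoo, Apool, Apold1 and Apol8, whose log2 differences lay between -0.64 and 0.24, did not pass the test, and without BCAS mouse 2 the list held 2 genes that were lower. The plasma apolipoprotein genes Apoa1 and Apob had at most 3 and 11 counts in any library. Among low genes seen after their values were known, Apol7e had 0, 0, 0 and 1 counts after sham surgery and 75, 2, 26 and 5 after BCAS, and Apof had 1, 3, 1 and 1 against 12, 2, 13 and 13. Apoh, in contrast, had 11, 10, 5 and 4 counts after sham surgery and 4, 2, 4 and 0 after BCAS.

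Genes that mark the cells known to express these apolipoproteins moved as well. All 10 microglial identity markers were called higher, beside 11.0% of all tested genes, with a median log2 fold change of 2.77. Fcrls rose by 3.83 on the log2 scale, and the summed list went from 402 to 482 CPM after sham surgery to 1588 to 5801 CPM after BCAS. Of 14 genes of disease-associated microglia, a microglial state known for high Apoe (which the list leaves out), 10 were over the filter level in every sham mouse and 9 of these were called higher. The 4 others, Cst7 (log2 fold change 10.42), Clec7a (8.12), Itgax and Lgals3, were called as well but entered the test through BCAS libraries. The sum of the list went from 2142 to 2870 CPM to 4904 to 17228 CPM. Of 8 border-associated macrophage markers 5 were called higher, 3 of them among the 5 over the filter level in every sham mouse. Of the leukocyte list, 3 of 12 blood leukocyte markers were tested and called higher, while 7 of the 12 had at most 3 counts in every sham library. The 3 tested leukocyte markers, Cd8a, Ly6c2 and Ccr2, had sham means of 0.0912, 0.0889 and 0.732 CPM and passed the filter through their BCAS libraries, so their count is no support for a rise. The same holds for the 9 leukocyte markers that were higher without BCAS mouse 2 and the 6 to 8 without a sham mouse. All 10 fibroblast markers were higher at the adjusted p, beside 19.2% of all tested genes, among them Col3a1 (log2 fold change 4.40) and Col1a1 (3.27), with sums of 112 to 146 CPM in sham and 243 to 1032 CPM after BCAS.

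Astrocytes are the main source of apolipoprotein E and clusterin in healthy brain. Of 10 astrocyte identity markers 6 were higher at the adjusted p of edgeR, beside 19.2% of all tested genes, a count that became 2 without BCAS mouse 3 or 4 or sham mouse 2, 3 or 4, and only Aqp4, the water channel of astrocyte endfeet, was called (log2 fold change 1.65, adjusted p = 0.00471). Their sum was 4933 to 5769 CPM in sham and 5721 to 6866 CPM after BCAS, with overlap between the groups. Of 10 reactive astrocyte genes, 8 were over the filter level in every sham mouse and all 8 were called higher, beside 11.0% of all tested genes, among them Serpina3n (log2 fold change 4.76). Lcn2 (7.68) and Timp1 were called too but entered the test through BCAS libraries, with sham means of 0.276 and 0.382 CPM. None of 10 oligodendrocyte markers passed the test, whereas 3 were higher without BCAS mouse 2 and 1 was lower without sham mouse 3. Of 12 neuronal markers 10 were lower, beside 12.8% of all tested genes, Snap25 by 1.07 and Nefm by 0.96 on the log2 scale. That count was 11 without BCAS mouse 1 or 2, 2 without BCAS mouse 3 or 4 or sham mouse 2, 1 without sham mouse 1 or 4 and 5 without sham mouse 3. The number of all genes called lower, which also needs a log2 fold change below -1, moved in these fits too. It was 220 with all mice, 112, 559, 182 and 133 without BCAS mice 1 to 4 in turn, and 86, 129, 259 and 127 without sham mice 1 to 4. The parts of these cell populations in the rises of Apoe, Apod and Clu were not tested.

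In the remaining marker lists the counts were as follows, beside 19.2% of all tested genes that were higher at the adjusted p. Of 8 oligodendrocyte precursor markers 3 were higher at the adjusted p (6 without BCAS mouse 2 and 1 without sham mouse 1, 2 or 4). Of 10 endothelial markers 3 were higher, and 0 or 1 without BCAS mouse 3 or 4 or any single sham mouse. Of the 9 mural cell markers tested 3 were higher, with and without sham mouse 3. No choroid plexus marker, of 8 tested, and no liver marker, of 1 tested, passed in either direction by edgeR. The direction of the choroid plexus markers rested on sham mouse 3. The median log2 difference of the list was -0.60 with it and 0.67 without it, and Ttr, which had 12169 counts in that library and 128 to 548 in the other sham mice, went from -2.78 to 0.54. Without sham mouse 3 no choroid plexus marker passed the test either.

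**Figure D4:**
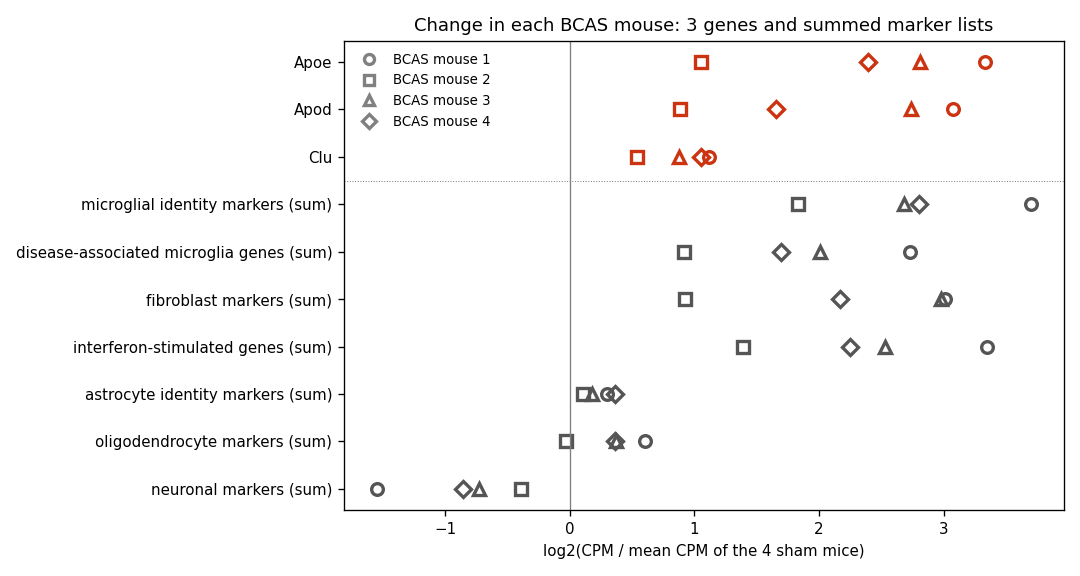
Log2 of the CPM of each BCAS mouse over the mean of the 4 sham mice (horizontal axis) for Apoe, Apod and Clu (red) and for the summed CPM of 7 gene lists (grey), with 1 symbol per mouse. Mouse 1 was highest and mouse 2 lowest for Apoe (3.33 and 1.05), and for neuronal markers mouse 1 was lowest (-1.55) and mouse 2 highest (-0.39).

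The count of a member over the summed counts of a marker list shows whether both moved by the same factor. Relative to microglial identity markers, the log2 difference of Apoe was -0.36, with an exact permutation p of 0.143, and 3 of the 4 BCAS mice lay below all sham mice. Relative to astrocyte identity markers, Apoe gained by 2.16 on the log2 scale, or 4.46-fold, in all 4 BCAS mice (exact p = 0.0286, adjusted 0.0571 over 12 ratios). Slc1a2, the main glutamate transporter of astrocytes, made up 66.4% of the sham sum of that list and did not pass the test (log2 fold change 0.02, adjusted p = 0.932 by edgeR), and without it the gain was 1.82. Relative to fibroblast markers the log2 difference of Apoe was 0.12 (exact p = 0.371), and without Fmod, the most abundant gene of that list, it was -0.014.

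Relative to disease-associated microglia genes the direction depended on 1 gene. Fth1, the ferritin heavy chain that many cell types express, made up 63.7% of the sham sum of that list and did not pass the test (log2 fold change 0.65, adjusted p = 0.0527 by edgeR), whereas the median of the list was 4.60. With Fth1 the log2 difference of Apoe was 0.55 (exact p = 0.0571), and without it Apoe fell behind the list by 0.44 on the log2 scale (exact p = 0.0286). For Apod the difference was 0.26 with Fth1 and -0.73 without it (exact p = 0.0286), and for Clu it was -0.95 and -1.93. These values without the most abundant gene of a list were added after the data were seen and are not adjusted for the number of ratios. Without Fth1, the list sum rested in turn largely on Ctsb and Ctsd. Their group means went from 603 to 2590 CPM and from 184 to 3057 CPM, and ratios without these genes were not computed.

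For Apod, the log2 difference was -0.65 against microglial identity markers (exact p = 0.114), -0.17 against fibroblast markers (exact p = 0.429), 0.26 against the whole list of disease-associated microglia genes (exact p = 0.257) and 1.86 against astrocyte identity markers (exact p = 0.0286, adjusted 0.0571). Clu fell behind microglial identity markers by 1.86, fibroblast markers by 1.38 and disease-associated microglia genes by 0.95 on the log2 scale, and it gained 0.66 on astrocyte identity markers (0.32 without Slc1a2), each in all 4 BCAS mice with an exact permutation p of 0.0286 (adjusted 0.0571). No ratio to a marker list passed 0.05 after adjustment. With any single sham mouse left out, the exact p was 0.0571 for Apoe and Apod over astrocyte identity markers and for Clu over the fibroblast and disease-associated microglia lists. The exact p fell to 0.0286 without BCAS mouse 3 for Apoe and Apod over microglial identity markers and without BCAS mouse 2 for Apoe over disease-associated microglia genes. In each of these the mouse left out was the only BCAS mouse not separated from all sham mice in the common direction. The lower p followed from leaving it out and is no support. A p above the threshold does not show that a member and a list moved alike.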

How the data were processed

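Per the study's methods and the submitters' processing notes, total RNA was extracted with TRIzol, libraries were made with the NEBNext Ultra kit and sequenced as read pairs, and reads were trimmed with Trim Galore, aligned to mm10 with HISAT2 and sorted with SAMtools 1.9. The authors deposited raw counts of read pairs per gene from featureCounts, 1 table per library and without normalization. The file headers name featureCounts 2.0.1, GENCODE vM20 exons and no strand option, whereas the notes name version 1.6.3. Without strand, pairs from antisense genes cannot be told apart, and pairs that mapped to several places or overlapped several genes were not counted. Symbols were matched by gene ID for 54723 of 54752 genes.

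Samples were grouped by their labels. The counts were scaled by TMM (factors 0.949 to 1.05), filtered by filterByExpr (minimum count 10, minimum total 15) and compared with the quasi-likelihood test of edgeR 4.0.16 in R 4.3.3, with Benjamini-Hochberg adjustment over 17136 genes and no covariate. The study's thresholds were used, with an adjusted p under 0.05 required together with a log2 fold change beyond 1 in either direction. Shares and ratios were compared by exact two-sided permutation over 70 arrangements (SciPy 1.17.1 in Python 3.11.15). The p-values measure the spread between these 8 mice. The test script was tested on simulated data. By a chi-square comparison of counts, all libraries of a group differed by more than counting noise. Named genes were all 7 members, the 2 largest increases and decreases at the adjusted p in each of 19 lists, and the 3 genes most correlated with each tested member. Some genes that this rule selects are not reported here. The members and lists were chosen with earlier results of these data known. Alternatives were other scalings, filters, tests (DESeq2 1.42.0, limma 3.58.1), thresholds, a replicate block, other denominators, adding the Apol9 genes, marker lists without their most abundant gene and leaving out each mouse. Columns other than the counts were used for positions and lengths.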

Additional observations from a re-analysis of the deposited data

Results flagged for a closer look

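Among 100 groups of 4 mice searched for a single mouse far from the others, 9 held such a value, and chance gives about 1 in 20 for a single group. The groups share libraries and are not independent, so the number of such values was not tested. Apod in sham mouse 3 was 99.2 CPM, below 131, 132 and 137 CPM in the other sham mice. The same library had the highest choroid plexus sum (807 CPM) and the lowest oligodendrocyte (3938 CPM) and mural cell (297 CPM) sums of the sham group, and their part in the Apod value was not tested. Without that mouse the log2 fold change of Apod was 2.23, compared with 2.33 with it.

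BCAS mouse 2 stood apart in 2 ratios that rest on its 3 counts of Apoc1. Its log2 ratio of Apoe over Apoc1 was 13.98, compared with 10.34 to 10.90 in the other BCAS mice, and its log2 ratio of Apoc1 over Apoc2 was 2.81, compared with 5.75 to 6.12, a ratio that rests on 0 to 3 counts of Apoc2 and is not read as a difference. In the remaining groups, BCAS mouse 4 had the highest choroid plexus sum after BCAS (80.4 CPM) and sham mouse 1 had the lowest reactive astrocyte sum (211 CPM) and the highest liver marker sum (17.3 CPM) of the sham group.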

How the results depend on the processing

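Every log2 fold change, share and ratio of the members kept its direction under the alternatives run, except 3 ratios to marker lists. Without the most abundant gene of the list, a setting added after the data were seen, the log2 difference was -0.44 for Apoe and -0.73 for Apod over disease-associated microglia genes (without Fth1) and -0.014 for Apoe over fibroblast markers (without Fmod), and the other 9 ratios kept their direction and side of 0.05. The log2 fold changes of Apoe (2.27 to 2.91) and Apod (1.98 to 2.62) kept an adjusted p under 0.05 in all 21 alternatives, and that of Clu (0.85 to 1.03) in all except the edgeR test against a log2 fold change of 1 (0.91), which called 744 genes in all. The main rule called 2097 genes and the adjusted p alone 5490. Of the 7 members 2 were called, beside 2097 of 17136 tested genes. Without a filter 5 were called, beside 2417 of 32537 genes, and 4 without a filter and with the Apol9 genes added. With a mouse left out 2 to 4 members were called, beside 1644 to 2967 of all genes. Both numbers were highest without BCAS mouse 2 (4 members, and 2967 of 17567 genes). The replicate numbers did not pair the mice (correlations of same-numbered deviations -0.10 to 0.00), and with a replicate block 1809 genes and 2 members were called, with log2 fold changes of 2.42 for Apoe, 2.11 for Apod and 0.90 for Clu.

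With 1 mouse left out, the difference in share ranged from 0.554 to 0.948 percentage points for Apoe, 0.0376 to 0.0665 for Apod and 0.0712 to 0.0931 for Clu. In counts per 1000000 it ranged from 3.51 to 6.33 for Apoc1, 0.0373 to 0.0832 for Apoc2, 0.504 to 1.00 for Apol9a and 0.492 to 1.33 for Apol9b. The log2 difference of a ratio ranged from 1.26 to 1.83 for Apoe over Clu, 0.15 to 0.38 for Apoe over Apod, -1.64 to -0.43 for Apoe over Apoc1, 1.09 to 1.54 for Apol9a over Apol9b and 1.61 to 2.72 for Apoc1 over Apoc2, and the added 0.5 largely sets the last 2 of these. As a ratio of counts summed over each group it was -1.53 for Apoe over Apoc1 (-0.81 as the mean over mice), 1.82 for Apol9a over Apol9b (1.37) and 0.94 for Apoc1 over Apoc2 (1.93). Against marker lists, Apoe ranged from -0.52 to -0.22 (microglial identity), 1.87 to 2.56 (astrocyte identity) and 0.47 to 0.69 (disease-associated microglia) and 0.06 to 0.22 (fibroblast), Apod from -0.89 to -0.49 (microglial identity), 1.55 to 2.22 (astrocyte identity), 0.10 to 0.35 (disease-associated microglia) and -0.30 to -0.06 (fibroblast), and Clu from -1.13 to -0.72 (disease-associated microglia) and -1.71 to -1.13 (fibroblast). The exact p of each share or ratio at 0.0286 went above 0.05 when a sham mouse was left out, except for Clu over the microglial and astrocyte lists, and for Apol9a over Apol9b only without sham mouse 3. Such a test has 35 arrangements. It sets 3 sham mice against 4 BCAS mice that spread more widely, so its p can rise while the groups stay separated. Depth limits Apoc2 and, in sham mice, Apoc1 and both Apol9 genes, which had 0 to 6 counts.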
